A study of Mus musculus with 9 samples.

Results

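Keratin genes were examined in satellite cells, which are muscle stem cells, from wild type (WT) and Bmi1-deficient (KO) mice. Every array probe, control spots aside, whose gene name is Krt followed directly by a number was taken, and each gene was represented by its probe with the highest mean log2 signal. This gave 51 keratin genes with 65 probes, out of 36373 genes and features with 55681 probes on the array. By the usual protein classes 26 are type I and 23 are type II keratins. Krt42, whose human counterpart is a pseudogene, and the keratin-like Krt222 were listed apart from these classes. The names are those of the array design. RefSeq now names the transcript behind the Krt83 probe Krt87, and the one behind Krt72-ps Krt72.

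All mice were FVB males of 2 months by their labels, and Bmi1 is part of the Polycomb complex PRC1, a silencer of developmental genes. Cells were sorted for integrin alpha-7 and CD34 and against CD31, CD45, CD11b and Sca1, and their RNA was amplified before hybridisation with Cy3. The 9 arrays, 3 WT and 6 KO, were read as 3 WT and 3 KO samples, because the descriptions give the KO arrays 3 numbers, each on a pair of arrays. The titles instead call the 6 KO arrays biological replicates 1 to 6, and whether a pair is 1 RNA is not stated, so the averaging rests on these numbers and on the scatter. Over 300 probes with repeat spots, the SD of 1 spot was 0.106 to 0.138 between the arrays of such a pair, 0.0762 to 0.125 within an array and 0.262 to 0.503 between other arrays. Whether the samples came from separate animals is not stated, so a p-value measures only how far these samples spread, which may be technical. The allele and the deleted part of Bmi1 are not given in the sources used here.

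Between 71.9% and 75.8% of spots were well above background and 0 were saturated, and the number of samples limits the precision. The Bmi1 probes gave 0.40, 0.61 and 0.48 in WT and 0.58, 0.71 and 0.48 in KO, and -0.30, -0.50 and -0.33 against 0.00, -0.31 and -0.20. Both were well above background on all 9 arrays, so the transcript gave no check of the labels, and KO means the samples labelled KO. KO replicate 1 is wild type in its genotype field and KO in its title, source and description. It was kept as KO, and KO sample 1, which holds it, was also left out in turn.

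Keratins are the intermediate filament proteins of epithelia, and a filament needs a type I and a type II keratin together. Simple epithelia use KRT8 with KRT18 or KRT19, basal cells of stratified epithelia KRT5 with KRT14, and the layers above them KRT1 with KRT10, while the follicle has its own root sheath and hair keratins. Satellite cells are of mesodermal origin, and muscle cells rely mainly on desmin and vimentin, though KRT8 and KRT19 are known at the costameres of striated muscle. Tfap2a encodes AP-2 alpha, a factor of epidermis and neural crest, and Hoxc13 encodes a factor of hair and nail that is known to act on hair keratin genes. The question was whether keratin genes were higher in the KO samples, where both factors rose.

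No keratin gene passed the test. Of the 51 genes, 34 passed the filter (well above background on 3 or more of the 9 arrays) and were tested among 28365 genes, and 0 had a limma adjusted p under 0.05, as compared to 0.141% of all genes tested (0.13% higher and 0.0106% lower in KO). At an unadjusted limma p under 0.05 there were 3, all with a higher mean in KO, namely Krt13, Krt42 and Krt19, as compared to 11% of all genes in either direction, 6.77% higher and 4.21% lower. The samples of the groups did not overlap for 4 of the 34, these 3 and Krt85, all with KO above, whereas 16.7% of all genes did not overlap, 8.62% with KO above and 8.09% with KO below. The mean was higher in KO for 24 keratins and lower for 10, with a median log2 difference of 0.11, beside -0.02 over all genes tested, of which 47.2% were higher. Single differences ran from -0.47 for Krt80 to 1.09 for Krt13, and the lowest adjusted p was 0.121. Their share past the unadjusted threshold, 3 of 34, was thus near the background, as was the share that did not overlap. The share with a higher mean in KO, 24 of 34, was above the 47.2% of all genes, a difference that was not tested.

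**Figure D1:**
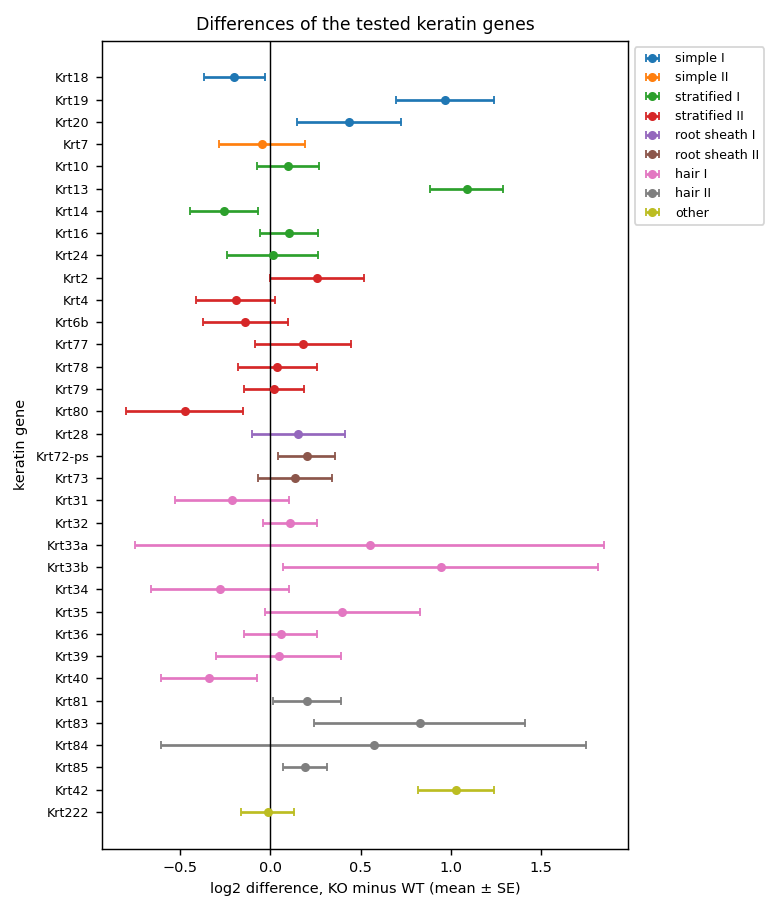
Log2 difference between KO and WT (horizontal axis, mean ± SE from limma, 3 samples against 3) for each of the 34 tested keratin genes, coloured by class. Krt13, Krt19 and Krt42 stand at 0.97 to 1.09, and most others lie within 0.5 of 0.

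The probes of these 3 genes are shown because the values below rest on them, and keratins resemble each other in their coding parts. Capitals mark the longest run that the probe shares with a probe of any other gene on the array. Krt13 is at chr11:99982471-99982530, Krt19 at chr11:100002392-100002451 and Krt42 at chr11:100128252-100128311, all on the minus strand of mm9, the build of the array design. The second Krt13 probe is at chr11:99980412-99980471. The sequences are 5′ to 3′.
Krt13: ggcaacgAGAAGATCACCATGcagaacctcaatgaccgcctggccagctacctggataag
Krt13, second probe: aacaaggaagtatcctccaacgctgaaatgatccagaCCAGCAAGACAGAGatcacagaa
Krt19: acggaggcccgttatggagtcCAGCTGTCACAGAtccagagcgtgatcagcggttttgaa
Krt42: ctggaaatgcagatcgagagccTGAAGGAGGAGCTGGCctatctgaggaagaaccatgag
These runs are 14, 14, 13 and 16 bases of 60. In the best ungapped overlap of 2 probes, 42.2% of bases matched between Krt13 and Krt19, 48.1% between Krt13 and Krt42, and 48.7% between Krt19 and Krt42. Probes were compared only with other probes, and these lie at different positions of their transcripts. The runs and percentages thus cannot show whether a probe binds transcripts of other keratins, which was not tested.

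Values are normalised log2 signals, the log2 of the processed spot signal less the array's 75th percentile, so that a probe at that percentile reads 0. Krt13, the type I keratin of mucosal epithelia such as that of the oesophagus, read -1.72, -1.96 and -1.52 in the 3 WT samples and -0.51, -0.45 and -0.98 in the 3 KO samples. Every KO sample lay above every WT sample, with the lowest KO sample 0.53 above the highest WT sample. The means were -1.73 ± 0.22 and -0.65 ± 0.29 (SD, n = 3 each), a log2 difference of 1.09 ± 0.20 (SE) or 2.12-fold, which did not pass (limma adjusted p = 0.121). The difference was 1.01 within slide 1, which holds 2 WT and 3 KO arrays, and 1.28 within slide 2, with 1 WT and 3 KO arrays. The second Krt13 probe did not show it. It was well above background on 1 of 3 WT and 2 of 6 KO arrays, read -3.39, -7.13 and -8.23 in WT and -7.13, -5.25 and -7.33 in KO, and differed by -0.32. The mean over both probes differed by 0.38 (limma adjusted p = 0.899).

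Krt42 lies at the end of the type I cluster of chromosome 11. It read -0.03, 0.09 and 0.27 in WT and 1.43, 1.24 and 0.74 in KO. The groups did not overlap, and KO sample 3 was the lowest of the KO samples. The means were 0.11 ± 0.15 and 1.14 ± 0.36 (SD, n = 3 each), and the log2 difference of 1.03 ± 0.21 (SE), or 2.03-fold, did not pass (limma adjusted p = 0.154). It was 1.04 within slide 1 and 1.015 within slide 2.

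Krt19 encodes a small type I keratin that lacks most of the usual tail and pairs with KRT8 in simple epithelia. It read -1.50, -1.80 and -1.19 in WT and -0.13, -0.46 and -1.0 in KO. Again all KO samples lay above all WT samples, but KO sample 3 was only 0.20 above the highest WT sample. The means were -1.50 ± 0.30 and -0.53 ± 0.44 (SD, n = 3 each), a log2 difference of 0.97 ± 0.27 (SE) or 1.96-fold, with a limma adjusted p of 0.266. Within slides 1 and 2 it was 0.89 and 1.20.

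Counting each array as a sample changed the calls for Krt13 and Krt42. With all 9 arrays as separate samples, the limma adjusted p was 0.0146 for Krt13, 0.02 for Krt42 and 0.0632 for Krt19, a fit that counts the arrays of a pair as independent. With the sample as a random block, Krt42 alone passed (limma adjusted p = 0.03), beside 0.0874 for Krt13 and 0.105 for Krt19. The arrays of a KO pair differed by at most 0.42 for Krt13, 0.17 for Krt19 and 0.12 for Krt42.

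**Figure D2:**
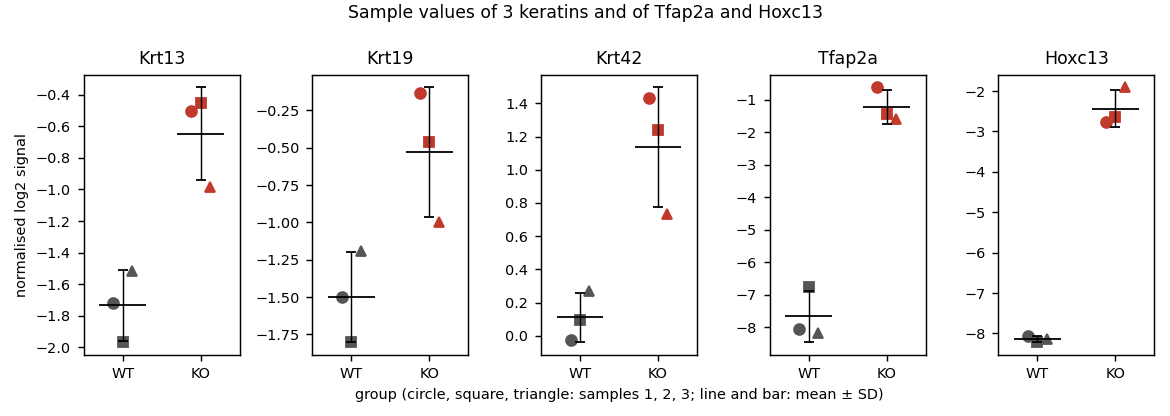
Normalised log2 signal (vertical axis, a scale of its own for each gene) of Krt13, Krt19, Krt42, Tfap2a and Hoxc13 in the 3 WT and 3 KO samples, with the mean and SD as a line and bar. KO sample 3 (triangle) is the lowest KO sample for the 3 keratins and Tfap2a and the highest for Hoxc13.

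Both factors, which the question named for their rise in these data, were higher in KO. They were tested through their KO arrays alone, so their p-values below are no independent support for the rise. Tfap2a read -8.05, -6.75 and -8.18 in WT, where its probe (chr13:40811044-40811103, mm9) was not well above background on any array, and -0.61, -1.43 and -1.59 in KO. Hoxc13 (chr15:102759058-102759117, mm9) read -8.06, -8.20 and -8.14 in WT, also not well above background, and -2.75, -2.64 and -1.91 in KO. On the main values the KO mean was at least 31.7-fold higher for Tfap2a and at least 13.6-fold higher for Hoxc13. These are bounds for these probes, taken against the lowest signal among probes well above background on each WT array. The fitted differences, which rest on WT values not well above background, had a limma adjusted p of 0.0237 and 0.00993. A second Tfap2a probe, above background on 1 of 3 WT and all 6 KO arrays, differed by 4.85, with 5.65 within slide 1 and 3.29 within slide 2. With the normexp background correction the log2 differences of Tfap2a and Hoxc13 were 3.08 and 2.14, in place of the fitted 6.45 and 5.70. In the authors' processed log2 values they were 3.19 and 2.24. These differences are smaller than the bounds, which thus hold for the main processing only. Leaving out any 1 of the 6 samples gave Tfap2a a limma adjusted p of 0.0626 to 0.101. For Hoxc13 it was 0.0721 to 0.0833 without WT sample 1, 2 or 3, and 0.00437 to 0.0429 without a KO sample.

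Among the KO samples the keratins did not take the order of either factor more often than other genes did. Tfap2a was highest in KO sample 1 and lowest in KO sample 3, an order shared by 5 of the 34 tested keratins (14.7%) and by 16.8% of all genes tested. Those 5 were Krt19, Krt24, Krt35, Krt42 and Krt85. Hoxc13 ran the opposite way, highest in KO sample 3, and 1 of the 34 (2.94%), Krt33a, had this order, beside 17.0% of all genes. With 3 KO samples such an order is a description without a test. Over the WT mean, Krt19 stood 1.36, 1.04 and 0.50 higher in KO samples 1, 2 and 3, and Krt42 1.32, 1.13 and 0.62.

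The promoters of Krt13 and Krt42 are printed to show whether they hold the letters these factors are known to prefer. They span 250 bases before to 50 after a RefSeq start (GRCm38.p6, minus strand), a later build than that of the probes. The motifs searched, on both strands, were GCCNNNGGC for AP-2 and TTTATTG, of the AT-rich kind that HOX proteins bind, and matches are in capitals. Krt13 has 2 starts in the table, at chr11:100120528-100120827 and chr11:100121517-100121816, and Krt42 is at chr11:100269902-100270201.
Krt13, first window: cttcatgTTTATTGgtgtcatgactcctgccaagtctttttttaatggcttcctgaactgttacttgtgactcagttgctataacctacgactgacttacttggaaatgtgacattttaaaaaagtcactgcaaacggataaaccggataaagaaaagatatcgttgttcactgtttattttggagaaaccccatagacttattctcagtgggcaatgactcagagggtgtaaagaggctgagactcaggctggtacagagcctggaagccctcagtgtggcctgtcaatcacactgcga
Krt13, second window: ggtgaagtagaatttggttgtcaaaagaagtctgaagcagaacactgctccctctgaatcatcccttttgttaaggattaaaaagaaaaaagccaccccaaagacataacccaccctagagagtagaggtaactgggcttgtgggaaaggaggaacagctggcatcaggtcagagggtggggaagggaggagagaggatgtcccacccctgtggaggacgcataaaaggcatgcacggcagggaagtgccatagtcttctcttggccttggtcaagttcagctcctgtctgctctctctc
Krt42: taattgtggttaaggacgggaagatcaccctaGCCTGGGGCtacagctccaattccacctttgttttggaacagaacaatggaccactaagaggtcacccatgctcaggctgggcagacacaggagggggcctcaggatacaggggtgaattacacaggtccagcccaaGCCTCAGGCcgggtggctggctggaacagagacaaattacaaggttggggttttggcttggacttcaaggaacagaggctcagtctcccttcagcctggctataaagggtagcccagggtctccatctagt
The Krt42 window holds the AP-2 letters at -218 and -81 (the match's first base, with the start as 0), the first Krt13 window holds TTTATTG at -243, and the second holds neither. The table has promoters of 35 of the 51 keratin genes, 36 in all. It has none for Krt19, whose promoter was therefore not searched. AP-2 letters were in 6 of these 36 (16.67%), as compared to 16.59% of 32851 promoters, and TTTATTG in 1 (2.78%), as compared to 4.6%. A match is a description of letters, not a site, and its absence says only that these letters are not in this window.

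Detection differed little between the groups. Per array, 29 to 34 of the 51 keratins were well above background in WT and 30 to 35 in KO. On all 9 arrays 27 genes were above background, 12 were above on none, and 12 on some. Taken by group, 28 genes were above background on all 3 WT arrays and 29 on all 6 KO arrays. No keratin was above background on every array of one group and on none of the other. The 17 genes that were not tested read between -8.40 and -4.99 in the 6 samples, and the 5 of them above background at all, Krt5, Krt8, Krt15, Krt27 and Krt86, were so on 1 array each.

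**Figure D3:**
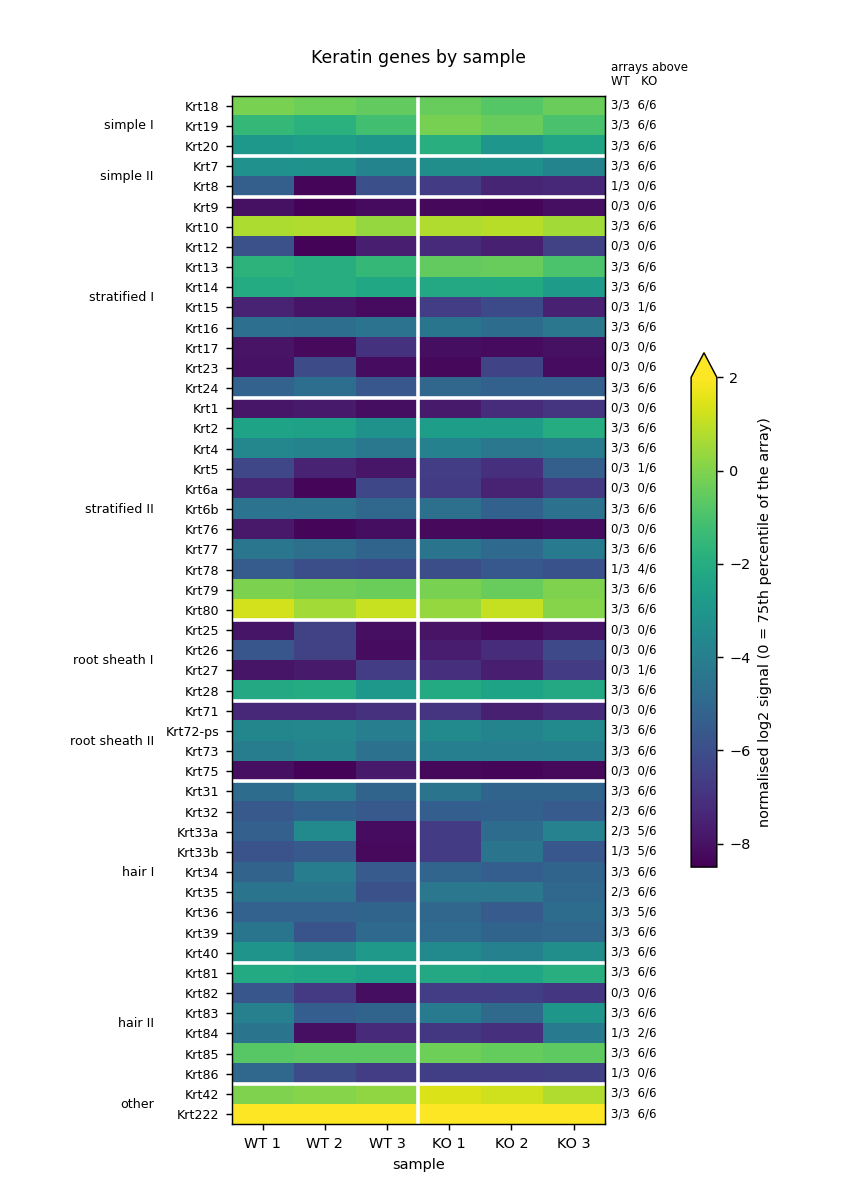
Normalised log2 signal (colour, 0 is the array's 75th percentile) of all 51 keratin genes by class in the 3 WT and 3 KO samples, with the number of WT and KO arrays well above background at the right. Colours compare samples within a row only, since probes differ, and the rows of Krt13, Krt19 and Krt42 are brighter in KO.

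Several well known filament partners were not detected together. Krt18 was above background on all 9 arrays, whereas Krt8, its type II partner and that of Krt19, was above on 1 of 3 WT and 0 of 6 KO arrays. Krt14 was above on all 9 arrays and its basal partner Krt5 on 1 KO array, with a second Krt5 probe above on 1 WT array. Krt10 was above on all 9 and its suprabasal partner Krt1 on none. Both Krt13 and Krt4, the mucosal pair, were above on all 9. These are flags of different probes, each with its own sensitivity, and were not read as levels of the proteins.

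Of the simple epithelial keratins, 4 of 5 were tested and Krt19 had the largest difference. Krt18 read -0.13, -0.31 and -0.54 in WT and -0.42, -0.75 and -0.40 in KO, a log2 difference of -0.20 ± 0.17 (SE). Krt20, the type I keratin of gut epithelium and Merkel cells, read -2.90, -2.67 and -2.95 in WT and -1.86, -2.97 and -2.38 in KO. Its samples overlapped, with KO sample 1 the highest and KO sample 2 the lowest of all 6, and the difference was 0.43 ± 0.29 (SE; limma adjusted p = 0.677). Krt7, the type II keratin of glandular and ductal epithelia, read -3.20, -3.14 and -3.78 in WT and -3.29, -3.21 and -3.75 in KO, so the groups lay on top of each other.

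The type I keratins of epidermis and other stratified epithelia had 5 of 10 members tested, 4 of them with a higher mean in KO. Apart from Krt13 none reached an unadjusted limma p under 0.05. Krt14, of the basal layer, read -2.05, -1.94 and -2.23 in WT and -2.18, -2.14 and -2.68 in KO, a log2 difference of -0.26 ± 0.19 (SE). Krt10, of the layers above it, read 0.73, 0.77 and 0.34 in WT and 0.74, 0.85 and 0.53 in KO, a difference of 0.10. At these probes the samples of both genes overlapped. A second Krt10 probe, also above background on all 9 arrays and not tested, read -1.03, -0.90 and -1.37 in WT and -1.44, -1.45 and -1.81 in KO, a difference of -0.47 with every KO sample below every WT sample. Krt16, induced in wounded epidermis, read -4.66, -4.69 and -4.49 in WT and -4.43, -4.78 and -4.32 in KO. For Krt24 the values were -5.20, -4.70 and -5.65 in WT and -5.03, -5.23 and -5.26 in KO. Both overlapped, with differences of 0.10 and 0.01. The members not tested were Krt9 of palm and sole skin, Krt12 of the cornea, Krt15 of basal and bulge cells, Krt17 of skin appendages, and Krt23.

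The type II keratins of stratified epithelia had 7 of 11 members tested, 4 with a higher and 3 with a lower mean in KO. At the tested probes the samples of none separated. Krt80, of differentiating epithelial cells, read 1.30, 0.54 and 1.10 in WT and 0.36, 1.09 and 0.07 in KO. This was the most negative difference of any tested keratin, -0.47 ± 0.33 (SE), but KO sample 2 lay at the WT level and WT sample 2 among the KO samples (limma adjusted p = 0.684). Krt4, the mucosal partner of Krt13, read -3.63, -3.81 and -4.29 in WT and -3.91, -4.35 and -4.05 in KO. Its difference was -0.19 ± 0.22 (SE), beside 1.09 for Krt13. Krt2, a late suprabasal keratin, read -2.42, -2.51 and -3.09 in WT and -2.60, -2.64 and -2.0 in KO, with KO sample 3 the highest. A second Krt2 probe, above background on 0 WT and 2 KO arrays and not tested, differed by 1.74, with every KO sample above every WT sample. Krt6b, of wounded epidermis and appendages, read -4.52, -4.51 and -4.97 in WT and -4.60, -5.23 and -4.58 in KO, a difference of -0.14, while its second probe gave 0.32. Krt77 read -4.38, -4.63 and -5.10 in WT and -4.47, -4.92 and -4.18 in KO. Krt79, of the upper follicle, read -0.06, -0.24 and -0.38 in WT and -0.13, -0.45 and -0.03 in KO. In each of these the WT and KO samples overlapped at the tested probe. Krt78 was above background on 1 WT and 4 KO arrays, and Krt1, Krt5, Krt6a and Krt76 were not tested.

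Root sheath keratins, which line the growing hair, had 3 of 8 members tested. Krt28 read -2.14, -2.04 and -2.90 in WT and -2.07, -2.41 and -2.15 in KO. The type II Krt72-ps read -3.70, -3.64 and -4.02 in WT and -3.52, -3.76 and -3.48 in KO, and Krt73 -4.03, -3.79 and -4.53 in WT and -3.97, -4.00 and -3.98 in KO. WT sample 3 was the lowest of the 6 for all 3 genes, and the differences were 0.15, 0.20 and 0.13. Krt25, Krt26, Krt71 and Krt75 were above background on none of the 9 arrays, and Krt27 on 1.

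Hair keratins, the class to which the known targets of Hoxc13 belong, had 13 of 15 members tested, and 0 reached an unadjusted limma p under 0.05. All 9 type I hair keratins were tested, with a median log2 difference of 0.06. Krt31 read -4.80, -4.11 and -5.12 in WT and -4.46, -5.10 and -5.10 in KO. Krt34 read -5.15, -4.04 and -5.51 in WT and -5.06, -5.36 and -5.11 in KO, with WT sample 2 the highest in both genes. Krt40 read -3.06, -3.72 and -2.86 in WT and -3.46, -3.87 and -3.33 in KO, a difference of -0.34 ± 0.27 (SE) that overlapped. Those of Krt31 and Krt34 were -0.21 and -0.28. Krt33b had the most positive difference of the type I hair keratins, 0.94, with values of -5.81, -5.58 and -8.22 in WT and -6.69, -4.46 and -5.64 in KO, but was above background on 1 of 3 WT and 5 of 6 KO arrays and had an SE of 0.87. Its neighbour Krt33a was as variable, from -8.17 to -3.53 over the WT samples.

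The remaining type I hair keratins had log2 differences of 0.05 to 0.40. Krt32 read -5.58, -5.26 and -5.58 in WT and -5.35, -5.25 and -5.49 in KO. Krt35 read -4.48, -4.45 and -5.88 in WT and -4.32, -4.34 and -4.94 in KO, a difference of 0.40 ± 0.43 (SE) to which WT sample 3 contributed most. Krt36 read -5.19, -5.20 and -5.10 in WT and -5.05, -5.49 and -4.77 in KO, and Krt39 -4.42, -5.77 and -4.93 in WT and -4.82, -5.11 and -5.05 in KO. All 4 overlapped between the groups.

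All 4 tested type II hair keratins had a higher mean in KO, and the samples of 1 did not overlap. Krt85, of the hair matrix and cortex, read -0.71, -0.65 and -0.65 in WT and -0.33, -0.49 and -0.61 in KO, a log2 difference of 0.19 ± 0.12 (SE; limma adjusted p = 0.662). KO sample 3 lay just above the WT samples. A second Krt85 probe above background on all 9 arrays gave -0.28, so the probes differed in direction, and another was above on none. Krt83 read -3.94, -5.37 and -5.11 in WT and -4.14, -4.85 and -2.95 in KO, a difference of 0.83 ± 0.59 (SE) carried by KO sample 3. Krt81 read -2.09, -2.33 and -2.56 in WT and -2.18, -2.33 and -1.87 in KO, and Krt84 was above background on 1 WT and 2 KO arrays. Krt222 read 6.99, 6.61 and 6.92 in WT and 6.92, 6.72 and 6.83 in KO, a difference of -0.01 ± 0.15 (SE), while its second probe was above background on none.

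Along the genome, the 3 keratins with the smallest p were all in the type I cluster. By probe position, 27 of the 51 genes are on chromosome 11 and 23 on chromosome 15, and the Krt85 probe has no position in the design. Krt13, Krt15 and Krt19 are consecutive keratin genes there, and Krt42 is the last of the cluster. Krt15, singled out after its values were seen, read -7.44, -7.91 and -8.18 in WT and -6.59, -6.16 and -7.55 in KO, above background on 1 KO array. Between Krt19 and Krt42 lie Krt9 and Krt17, not tested, and Krt14 and Krt16, which differed by -0.26 and 0.10. The genes tested between the Krt13 and Krt42 probes were all keratins, so the differences near 1 did not run through the whole stretch.

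**Figure D4:**
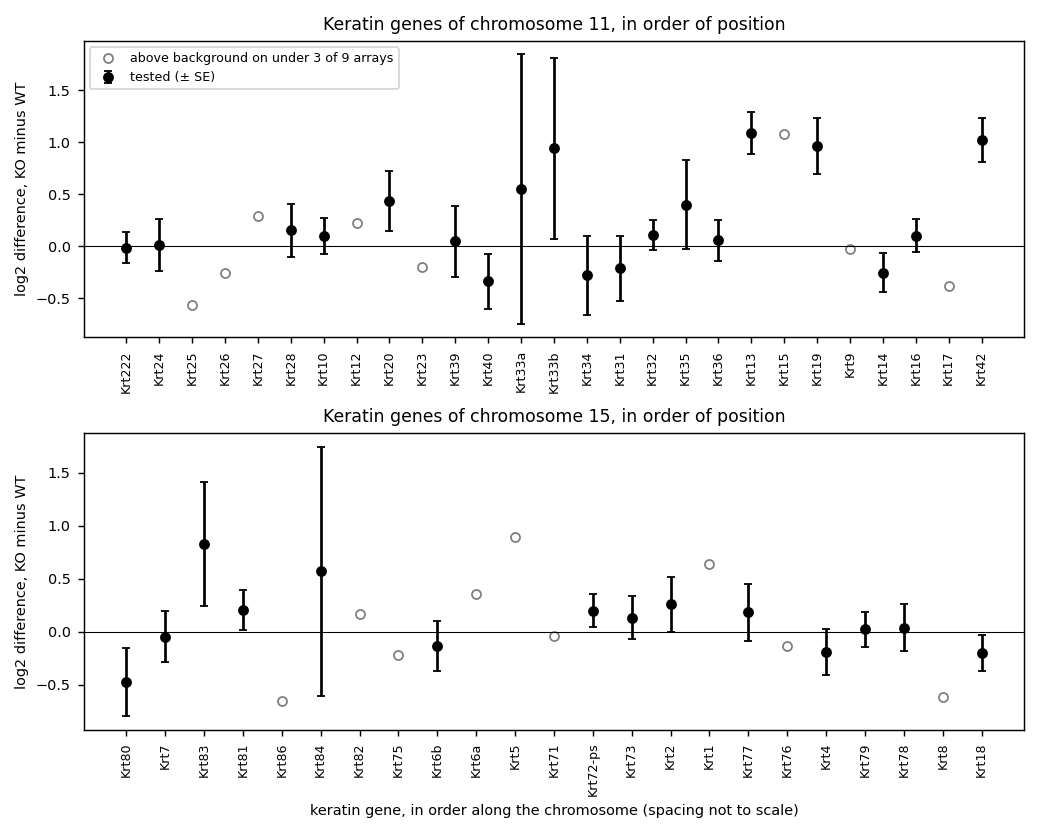
Log2 difference between KO and WT (vertical axis) of the keratin genes of chromosomes 11 and 15 in order of position (horizontal axis, spacing not to scale), with filled points and SE bars for tested genes and open points for those above background on under 3 of 9 arrays. Krt13, Krt19 and Krt42 stand near 1 on chromosome 11, with Krt14 and Krt16 near 0 among them. Krt33b, at 0.94 with an SE of 0.87, and the untested Krt15, at 1.08, stand near 1 as well.

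Second probes limit what a single gene shows. Of the 51 genes, 13 had more than 1 probe, and 4 of these, Krt28, Krt40, Krt85 and Krt222, had a probe above background on all 9 arrays and another on none. Krt6b, Krt10 and Krt85 had more than 1 probe above background on all 9 arrays, and in each the difference had the opposite sign at the other probe.

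Other genes of ectoderm were read from 3 lists. Of 23 ectodermal transcription factors 20 were tested, and the 2 that passed were Tfap2a and Hoxc13, which the question had named for their rise and which are no result of the list. The others with an unadjusted limma p under 0.05 were Klf5, Dlx3, Sox9 and Gata3, all higher in KO, the latter 2 named after their values were seen. Gata3, like Tfap2a and Hoxc13, was above background on no WT array and so was tested through its KO arrays alone. Klf5, a factor of proliferating epithelia, read -1.51, -1.11 and -1.26 in WT and -0.10, -0.17 and -0.55 in KO (difference 1.02 ± 0.18, SE; limma adjusted p = 0.114). Dlx3, of differentiating epidermis and hair, read -4.46, -4.67 and -4.83 in WT and -3.54, -4.07 and -3.80 in KO (limma adjusted p = 0.164). For both, all KO samples lay above all WT samples. That held for 7 of the 20 tested, Tfap2a and Hoxc13 included, beside 8.62% of all genes tested, and the opposite for 0, beside 8.09%.

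Of 40 keratinocyte junction and envelope genes 27 were tested and 0 passed, 5 being higher and 1 lower at an unadjusted limma p under 0.05, beside 6.77% and 4.21% of all genes, with a median of 0.11. The lower one was Sbsn, the suprabasin of differentiating keratinocytes, with a difference of -0.51 ± 0.20 (SE) and no overlap, named after its value was seen. Dsp, the desmoplakin that ties keratin filaments to desmosomes, read -7.27, -7.37 and -7.36 in WT, above background on no array, and -5.23, -5.16 and -6.01 in KO, above on 5 of 6 arrays. Like Gata3, Dsp was thus tested through its KO arrays alone, and it is 1 of the 5 higher genes. On the main values its KO mean was at least 1.66-fold higher, and the fitted difference had a limma adjusted p of 0.0736. Perp, a desmosomal membrane protein, read 0.51, 0.80 and 0.90 in WT and 2.17, 1.5 and 1.72 in KO, a difference of 1.06 ± 0.21 (SE). Itga6, of the hemidesmosome, differed by 0.85 ± 0.18 and Cldn1, of tight junctions, by 0.97 ± 0.22. All KO samples lay above all WT samples for 5 of the 27, among them Dsp, Perp, Itga6 and Cldn1, beside 8.62% of all genes tested. The opposite held for 1, beside 8.09%. The mean was higher in KO for 17 of the 27 and lower for 10. The summed signal of the list, the log2 of the sum over its genes, was 6.67 to 6.78 in WT and 6.79 to 6.87 in KO. Of the 40 genes, 23 were above background on all 9 arrays and 11 on none, the latter including Ivl and Flg of the cornified envelope and the desmosomal cadherins Dsg1a and Dsg3. Of the epidermal keratins named above, Krt10 and Krt14 were above background on all 9 arrays, Krt5 on 1 and Krt1 on none. The part of such cells in the keratin values was not tested, and in bulk samples fewer cells of a type and less RNA per cell cannot be told apart.

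Of 16 other intermediate filament genes, 13 were tested, 0 passed and the median was 0.05. Lmnb1, of the nuclear lamina, read 0.46, 0.41 and 0.49 in WT and -0.24, -0.02 and 0.13 in KO, a difference of -0.49 ± 0.14 (SE; limma adjusted p = 0.262) with no overlap. The neuronal Nefh and Prph differed by 1.29 ± 0.67 and -0.42 ± 0.23, and Nes, the nestin of muscle and neural progenitors, by 0.30 ± 0.16. Vim and Des, the filaments of muscle cells and named for that role after their values were seen, differed by 0.23 ± 0.15 and 0.05 ± 0.13 (SE, adjusted p = 0.662 and 0.937 in the limma fit). Nefh, Nes, Prph, Vim and Des overlapped between the groups.

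Markers of other cell types of muscle were also read. The sort against CD31, CD45, CD11b and Sca1 is meant to remove endothelial and blood cells and Sca1+ mesenchymal cells, and Pecam1 (CD31), Ly6a (Sca1), Ptprc (CD45) and Itgam (CD11b) are members of the lists. The 20 satellite cell markers were above background on all 9 arrays, 0 passed, and their median difference was 0.05. Endothelial markers had 12 of 15 tested, all with a higher mean in KO (median 0.96), 0 passed, and their summed log2 signal was 2.10 to 2.45 in WT and 2.52 to 3.16 in KO. Mesenchymal markers had 13 of 13 tested, 0 passed, a median of 0.92, and sums of 6.96 to 7.10 and 7.44 to 7.61. The sums of both lists were higher in every KO sample than in any WT sample, as were those of the glial and mesothelial markers. Glial markers had 9 of 10 tested, 0 passed, a median of 0.76, and sums of 5.69 to 5.93 and 6.01 to 6.09. Mural and smooth muscle markers had 12 of 12 tested and 1 passed, Pdgfrb (difference 1.35, limma adjusted p = 0.0377). Of these 12, 11 had a higher mean in KO, beside 47.2% of all genes tested. Their median was 0.48, and their sums were 7.46 to 7.49 and 7.44 to 7.53. All KO samples lay above all WT samples for 5 of the 12, beside 8.62% of all genes tested. That held for 6 of 13 mesenchymal, 5 of 9 glial, 3 of 12 endothelial and 3 of 20 satellite cell markers. It also held for 1 of 9 blood cell and 1 of 3 mesothelial markers. The opposite was seen for 3 satellite cell markers and 1 blood cell marker, beside 8.09% of all genes tested. Blood cell markers had 9 of 11 tested, 0 passed, a median of -0.07 and sums of 6.95 to 7.17 and 6.91 to 7.06. In each sum the brightest probes weigh most, such as Itgam (WT mean 7.02, beside -3.51 for Ptprc) and, in the mural list, Mcam (6.75). A sum is thus not the level of a cell type. Mesothelial markers, listed because that epithelium expresses Krt8, Krt18 and Krt19, had 3 of 8 tested, 0 passed, a median of 1.0, sums of -3.35 to -2.93 and -2.68 to -1.61, and 4 of 8, Lrrn4, Upk1b, Bnc1 and Muc16, above background on no array. The part of these cells in the values of Krt13, Krt19 and Krt42 was not tested.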

How the data were processed

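Per the file headers, Agilent Feature Extraction 10.7.3.1 made the deposited spot intensity values, with background subtracted, dim values replaced by a small surrogate and no normalization between arrays. The surrogate makes folds near background unreliable. The authors also deposited processed log2 values (method not given in the sources used here), which served as an alternative. Well above background is the scanner's own flag.

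Processed signals were put on the log2 scale, less the 75th percentile of each array's non-control spots, and repeat spots averaged. Probes flagged on 3 or more of the 9 arrays were kept (42983 kept, 12698 removed), with 1 probe per gene, the one with the highest mean. Since 6 of 9 arrays are KO, a gene bright in KO alone passes more easily. KO arrays of 1 number were averaged, and 3 WT and 3 KO samples compared in limma 3.58.1 (lmFit and eBayes, R 4.3.3, with statmod 1.5.0 and the package data.table, version 1.17.8), with Benjamini-Hochberg adjustment over 28365 genes at 0.05 and 4 residual degrees of freedom. The fit was tested on simulated data. Names were updated through RefSeq (26300 probes by accession, 2044 by symbol, 355 by synonym). Python 3.11.15, pandas 2.3.3 and matplotlib 3.10.9 handled sequences and plots.

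Values in full were given for keratins well above background on every array of at least 1 group, for the 5 tested keratins with the largest difference in each direction and for any that passed, and, from each list beside them, for those that passed and up to 4 with the smallest p. The members and lists were chosen with earlier results of these data known. Alternatives varied background correction, normalization, percentile, filter, slide, the treatment of array pairs, the probe of a gene and the samples included. One, normexp and quantile normalization with the sample as a random block, was chosen after seeing the data. The numbers of the samples did not pair them (correlation of deviations -0.04, 0.03 and 0.01).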

Additional observations from a re-analysis of the deposited data

How the results depend on the processing

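The count of keratins called stayed 0 under every alternative but 3. It was 2 with all 9 arrays as separate samples (Krt13 and Krt42), and 1 (Krt42) with the sample as a random block, both on the main values and, as an alternative chosen after seeing the data, on normexp and quantile values. These fits take degrees of freedom from arrays. The log2 differences of Krt13, Krt19 and Krt42 ran from 0.38 to 1.26, 0.77 to 1.20 and 0.88 to 1.23. Of the 31 keratins whose values are given in full, 15 kept their sign under each alternative run and 16 had the opposite sign under at least 1, none of them called. By the scanner's flag for a positive and significant signal, 32 keratins were above background on all 9 arrays, in place of 27.

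The number of all genes called, 40 here, was 295 with normexp, 248 with normexp and quantile normalization, 248 in the authors' table, 13 without a filter, 103 with a filter for every array of a group, 4 with slide as a block and 2 within slide 1. It was 1202 with all 9 arrays as separate samples, 546 with the sample as a random block and 803 for the latter on normexp and quantile values. The share of called genes that were higher in KO was 92.5%, 74.3% with 9 separate arrays and 73.6% in the last. Leaving out 1 sample gave 0 without WT sample 1 or 3, 1 without WT sample 2 or KO sample 3, 5 without KO sample 1 and 9 without KO sample 2. With the sample number as a replicate block limma called 0 genes (2950 at an unadjusted p under 0.05), and Tfap2a and Hoxc13 lost their call (limma adjusted p = 0.173 for both), as they did within slide 1 (0.0557 and 0.0845), but the numbers do not pair the samples. No keratin was called under this block. The causes of these changes were not tested. Signal over background limits the 17 keratins not tested and any gene near background.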
